A study of Mus musculus with 4 samples.

Results

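Genes of the piRNA pathway and of the germ granules, 10 of the 25265 genes in the deposited table, were followed by symbol in testis RNA: Piwil1, Piwil2, Mov10l1, Tdrkh, Tdrd1, Tdrd5, Tdrd6, Tdrd9, Mael and Ddx4. The rule picks them by name and uses no measured value. The comparison was between C57BL/6 mice labelled control and C57BL/6 mice labelled Ythdf2-vKO, at postnatal day 56, with 2 whole-testis libraries in each group. The series title describes a germ cell-specific mutation of Ythdf2, whose protein is a cytoplasmic reader of N6-methyladenosine (m6A) in RNA. The labels spell out neither the letter v nor the driver of the deletion, do not describe the controls further, and do not say whether each library came from its own animal, so p-values measure the spread between these libraries, which may be technical. The question put to the data is whether RNA levels of this machinery differed between these genotypes.

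piRNAs are short RNAs of the germ line that guide PIWI proteins to complementary RNA, where they silence transposons and, in meiosis and after it, cleave or destabilise other transcripts. Long precursor RNAs are made from genomic clusters and carried to cytoplasmic granules, the intermitochondrial cement of spermatocytes and the chromatoid body of spermatids. There they are unwound, cut, trimmed and methylated, while Tudor-domain proteins bind methylated arginines of PIWI proteins and hold the machinery together. In the testis these genes are transcribed mainly in germ cells, and loss of most of them arrests spermatogenesis in mice.

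The windows upstream of the transcription starts were searched for AACGG, a form of the core motif of MYB transcription factors, because A-MYB (Mybl1) is known to drive piRNA genes at the pachytene stage of meiosis. RefSeq windows on GRCm38.p6 were matched for 8 of the 10 genes by symbol, and Tdrd6 and Piwil2 were not matched. AACGG, read on both strands over the 250 bases before the start, lay in 5 of the 8 windows, those of Piwil1, Mov10l1, Tdrd5, Tdrd9 and Ddx4. The share was 14.5% of all 32851 windows of the same length, and 18.7% of the 13863 windows with a GC content of at least 54.8%, the lowest among the 8. The looser core AACNG, which contains AACGG, lay in 7 of the 8 windows, against 74.2% of all windows and 67.6% of those with that GC content. Tdrd1 had 3 windows, of which the one nearest the M21 start was used. A match is a description of the letters and not a bound site. The 4 stretches below show where the match falls in 3 genes, Mael being shown as an abundant member without one. Capitals mark AACGG or its reverse complement CCGTT, and each stretch stops before the first base that GENCODE M21 places in an exon of the gene.
Piwil1, chr5:128735996-128736173, plus strand: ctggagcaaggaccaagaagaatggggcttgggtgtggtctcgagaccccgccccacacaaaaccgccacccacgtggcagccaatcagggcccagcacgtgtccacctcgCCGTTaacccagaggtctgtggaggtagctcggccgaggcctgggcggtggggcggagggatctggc
Mov10l1, chr15:88982744-88982908, plus strand: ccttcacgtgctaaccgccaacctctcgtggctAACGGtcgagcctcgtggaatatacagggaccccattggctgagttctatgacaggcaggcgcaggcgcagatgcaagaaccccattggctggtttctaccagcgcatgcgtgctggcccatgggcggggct
Tdrd9, chr12:111971309-111971558, plus strand: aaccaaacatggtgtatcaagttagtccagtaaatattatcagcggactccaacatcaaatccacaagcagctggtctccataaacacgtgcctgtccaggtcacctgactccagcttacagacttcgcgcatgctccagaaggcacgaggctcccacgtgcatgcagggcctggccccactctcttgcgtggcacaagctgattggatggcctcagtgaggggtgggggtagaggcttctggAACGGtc
Mael, chr1:166238748-166238994, minus strand: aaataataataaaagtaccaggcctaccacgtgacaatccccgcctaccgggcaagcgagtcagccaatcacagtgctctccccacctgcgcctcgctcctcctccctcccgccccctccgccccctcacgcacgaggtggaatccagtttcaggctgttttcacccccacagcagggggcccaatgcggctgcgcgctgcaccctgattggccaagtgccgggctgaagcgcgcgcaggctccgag

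In Piwil1 the match began 139 bases before the annotated start, in Mov10l1 217 bases and in Tdrd9 7 bases. The matches of Tdrd5 and Ddx4 began 9 and 20 bases before theirs, after the first base of the window that M21 places in an exon. Whether the matches themselves are exonic in M21 was not examined. The RefSeq start of Piwil1 lies 33722 bases inside the gene as M21 draws it, so its stretch is intronic there.

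Libraries held 24862518 to 29561182 counts, and the 10 genes took between 0.313% and 0.34% of them. The targeted gene was checked first: control libraries held 1193 and 1604 counts of Ythdf2 and those labelled vKO 1774 and 1807, or 51.0 and 53.5 CPM against 66.3 and 67.0 CPM. CPM is the count scaled by the library's size, with TMM factors. Ythdf2 was thus not lower where the label says it was mutated (log2 fold change 0.35, SE 0.13, adjusted p 0.238 in edgeR). Counts over a whole gene do not show a deleted exon, and each direction given here refers to libraries by their label. Markers of spermatogonia, spermatocytes, round and elongating spermatids and the somatic cells of the testis were all detected in every library, as whole testis should give.

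The levels of the 10 genes spanned a wide range in each library. On a scale that allows comparison between genes, CPM per kilobase of annotated exon, Mael stood highest at 543 ± 34 (SD over the 4 libraries). Its level was 4.68 times that of the next gene and 64.9 times that of Tdrkh, the lowest at 8.36 ± 0.654. Between them came Tdrd6 at 116 ± 19.5, Ddx4 at 106 ± 6.89 and Piwil1 at 89.1 ± 13.0, and the ranges of Tdrd6 and Ddx4, and of Ddx4 and Piwil1, overlapped across libraries. A lower tier held Tdrd1 at 41.3 ± 2.31, Piwil2 at 33.9 ± 2.45, Tdrd9 at 31.1 ± 2.04 and Mov10l1 at 26.3 ± 1.95. Within it the ranges of Piwil2 and Tdrd9, and of Tdrd9 and Mov10l1, also overlapped, so these neighbours are not ordered beyond their spread. Tdrd5 followed at 15.3 ± 1.4. Its place depended on the length used, since per kilobase of its longest transcript it stood at 28.2, above the 26.6 of Mov10l1 on that scale. Against all genes tested, the levels per kilobase lay between the 69.7 percentile (Tdrkh) and the 99.8 percentile (Mael).

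**Figure D1:**
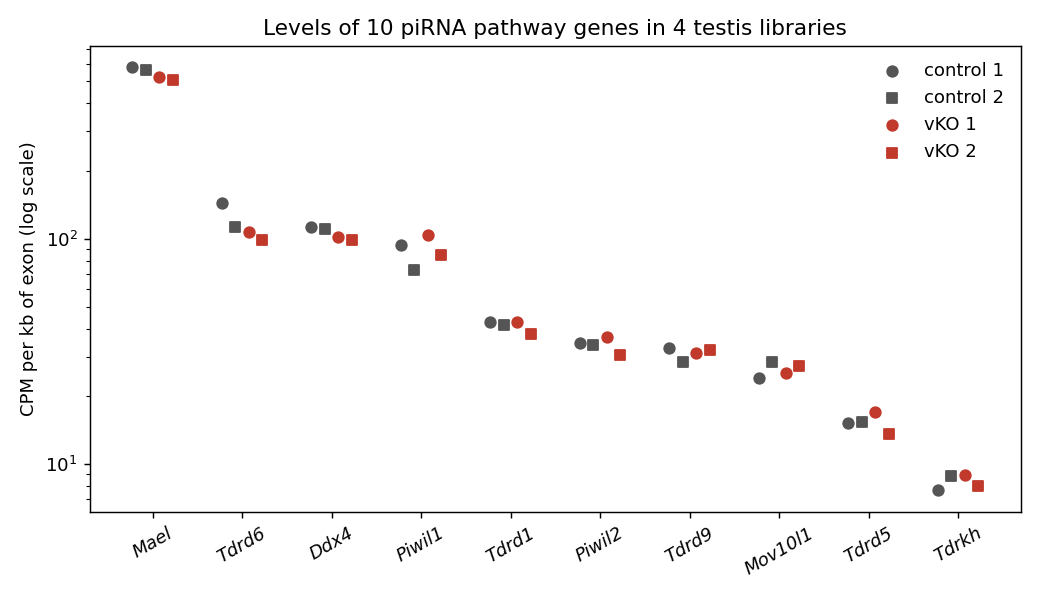
CPM per kilobase of exon on a log scale (y axis) for each gene (x axis, ordered by mean level), with 1 point per library, control in grey and vKO in red. Mael stands 4.68 times above Tdrd6, and Tdrkh stands lowest, at 8.36 on average.

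None of the 10 genes passed the threshold between genotypes. By edgeR's quasi-likelihood test with an adjusted p under 0.05 over all genes, 0 of 10 were called, where 0.393% of the 21132 genes tested were (83 genes). By direction, 0.279% of genes tested were called higher and 0.114% lower. At an unadjusted p under 0.05 there was 1 of 10, Tdrd6, on the lower side, against 14.1% of all genes, 6.47% lower and 7.65% higher. A DESeq2 Wald test also called 0 of 10 and gave 1 of 10 at an unadjusted p under 0.05, against 8.76% of all genes by that test. At an adjusted p under 0.05 the authors' deposited DESeq2 values call 1.32% of the 16448 genes that have an adjusted p there. The fitted log2 fold changes ran from -0.31 to 0.17, with 5 above and 5 below 0. Of all genes 49.7% lay below 0, and of the 4521 genes with a mean CPM at least that of the lowest member 64.9% did. The median of the 10 genes was -0.012, against 0.0027 for all genes tested. With library totals alone these medians were 0.052 and 0.067. All 10 genes passed the filter on low counts, with 1098 to 29276 counts in a library. Their standard errors lay between 0.11 and 0.15, so the 95% intervals, which are not adjusted for the number of genes, bound each change: the lowest bound was a change of -34.2% (Tdrd6) and the highest one of 40.7% (Piwil1). In 8 of the 10 genes, the replicates of at least 1 group differed from each other by more than the fitted change between groups, and the exceptions were Mael and Ddx4.

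**Figure D2:**
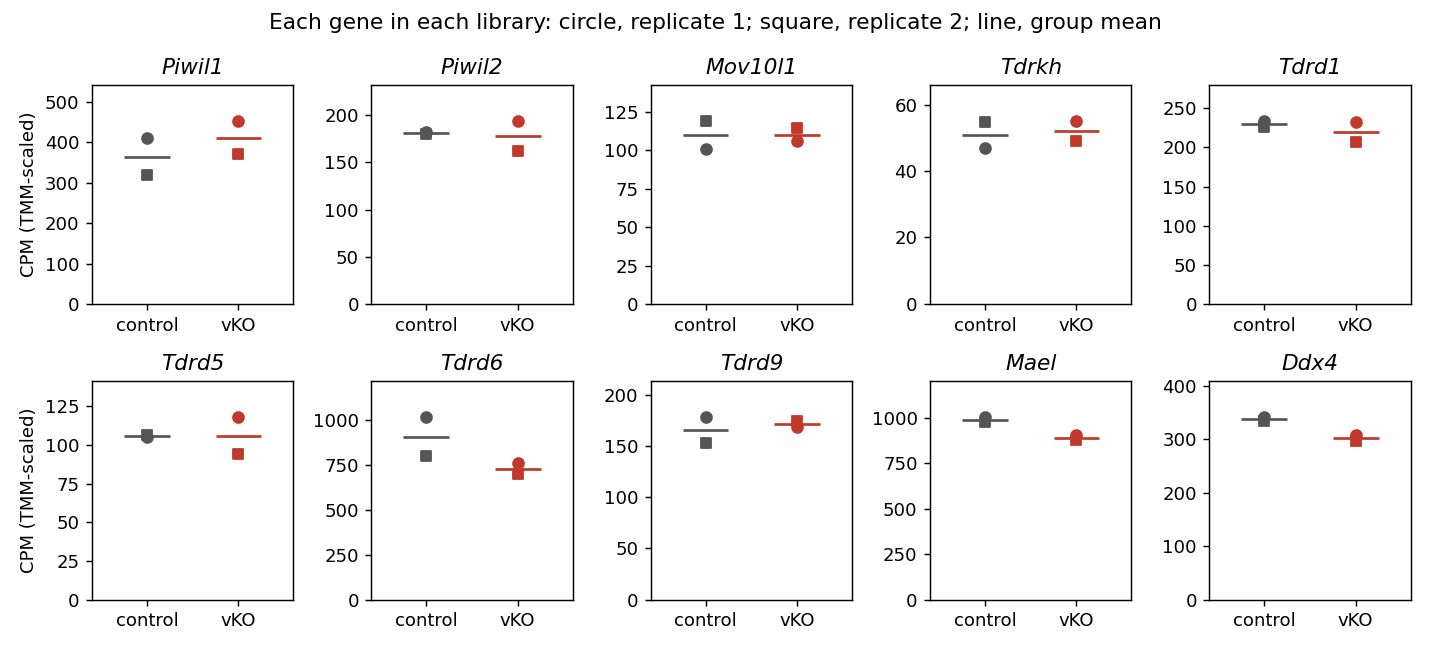
CPM in each library (y axis from 0, TMM-scaled) for each gene, control in grey and vKO in red; circles are replicate 1, squares replicate 2 and lines group means. Only in Tdrd6, Mael and Ddx4 do both vKO points lie below both control points.

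The PIWI proteins are the slicers that carry piRNAs. Piwil1 (ENSMUSG00000029423, chr5:128702524-128755474 in GRCm38, as for all positions here) encodes MIWI, the partner of pachytene piRNAs in spermatocytes and round spermatids. Its level was 411 and 319 CPM in control, against 452 and 371 CPM under the vKO label. Control replicate 2 was the lowest and vKO replicate 1 the highest, and the groups overlapped. The log2 fold change was 0.17 (SE 0.15, 95% interval -0.14 to 0.49, adjusted p 0.655 in edgeR), and over the alternatives that used all 4 libraries the adjusted p ran from 0.398 to 0.797. Leaving out control replicate 1 raised the change to 0.36, with an adjusted p of 0.0303 in edgeR, in a fit that called 6.82% of all genes. Leaving out control replicate 2 brought it to 0.0037 (adjusted p 0.993), and leaving out vKO replicate 1 to 0.027, in a fit that called 0.16% of all genes. Without vKO replicate 2, where 0.446% were called, it was 0.31. These fits, here and below, leave 1 library in a group and assume that it varies like the other libraries.

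Piwil2 (ENSMUSG00000033644, chr14:70372477-70429383) encodes MILI, which is present from spermatogonia to round spermatids and feeds the early steps of piRNA production. It stood at 183 and 180 CPM in control, against 193 and 162 CPM under the vKO label. The control libraries nearly coincided and lay between those labelled vKO. The log2 fold change of -0.027 (SE 0.13, 95% interval -0.30 to 0.25) did not pass (adjusted p 0.958, edgeR). Per kilobase, Piwil1 exceeded Piwil2 by 2.73 and 2.15 times in control, against 2.83 and 2.78 times under the vKO label, with control replicate 2 again the lowest.

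Mov10l1 (chr15:88982909-89055152) encodes the helicase that unwinds piRNA precursors, and Tdrkh (chr3:94413273-94434668) the Tudor protein that anchors PIWI proteins at mitochondria for trimming. Mov10l1 read 101 and 119 CPM in control, and 106 and 114 CPM under the vKO label lay inside that range. Its log2 fold change was 0.0039 (SE 0.13, 95% interval -0.28 to 0.28). Tdrkh read 47.0 and 54.6 CPM in control, against 54.9 and 49.0 CPM under the vKO label, overlapping again. Its log2 fold change was 0.031 (SE 0.14, 95% interval -0.27 to 0.33). Their adjusted p values in edgeR were 0.994 and 0.957. The value for Tdrkh is uncertain, because 2255 nt of its 5692 nt longest transcript are the reverse complement of Oaz3, an antizyme gene of elongating spermatids on the opposite strand. Oaz3 held 27911 to 36731 counts per library against 1098 to 1638 for Tdrkh. The libraries were directional per the labels, but the strand setting of the counting is not given in the sources used here. No other M21 gene was at least 90% identical to a longest transcript of the 10 genes over 200 nt or more.

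The Tudor-domain proteins scaffold the granules. Tdrd1, a partner of MILI in the intermitochondrial cement, read 233 and 227 CPM in control, against 233 and 207 CPM under the vKO label. Tdrd5, which selects and processes pachytene precursors, read 105 and 106 CPM in control, between the 118 and 94.2 CPM of the vKO-labelled libraries. Tdrd9, an ATPase that acts with the nuclear PIWI protein in fetal germ cells, read 178 and 153 CPM in control, against 168 and 174 CPM under the vKO label. In these 3 genes the groups overlapped and the log2 fold changes were -0.065, 0.0020 and 0.048, with adjusted p values in edgeR of 0.866, 0.996 and 0.912. Exons of 4930518J20Rik overlap those of Tdrd5 on the other strand, and this antisense gene held 2405 to 2994 counts against 2464 to 3189 for Tdrd5, so reads of the pair can be told apart only if the counting used strand.

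Tdrd6 (ENSMUSG00000040140, chr17:43615335-43630299), the large Tudor scaffold of the chromatoid body, showed the largest difference among the 10 genes. It read 1017 and 799 CPM in control, against 759 and 702 CPM under the vKO label. The groups did not overlap, although control replicate 2 lay closer to the vKO-labelled libraries than to control replicate 1. The log2 fold change was -0.31 (SE 0.13, 95% interval -0.60 to -0.025), a change of -19.6%, with an unadjusted p of 0.0355 and an adjusted p of 0.313 in edgeR, so it did not pass. In the authors' deposited table the log2 fold change was -0.32 (SE 0.16) at an adjusted p of 0.384. Over the alternatives with all 4 libraries the adjusted p ran from 0.164 to 0.384. The size rested on control replicate 1: without it the change was -0.14 (adjusted p 0.544), and without control replicate 2 it was -0.48 (adjusted p 0.000662, edgeR), in a fit that called 4.93% of all genes. Markers of elongating spermatids stood highest in the same control library. Their summed level was 17330 and 14219 CPM in control, against 13492 and 13915 CPM under the vKO label. In log2 fold change 11 of 12 lay below 0, 5 of them at an unadjusted p under 0.05 in edgeR, and none was called. Of all genes tested 49.7% lay below 0, and 6.47% were lower at that unadjusted p. Of the 4521 genes at least as abundant as the lowest member, 64.9% lay below 0. Oaz3 is among the 12 markers. Their median was -0.24, and -0.12 without control replicate 1. Their part in the Tdrd6 difference was not tested, and in whole testis fewer cells of a type and less RNA per cell cannot be told apart.

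**Figure D3:**
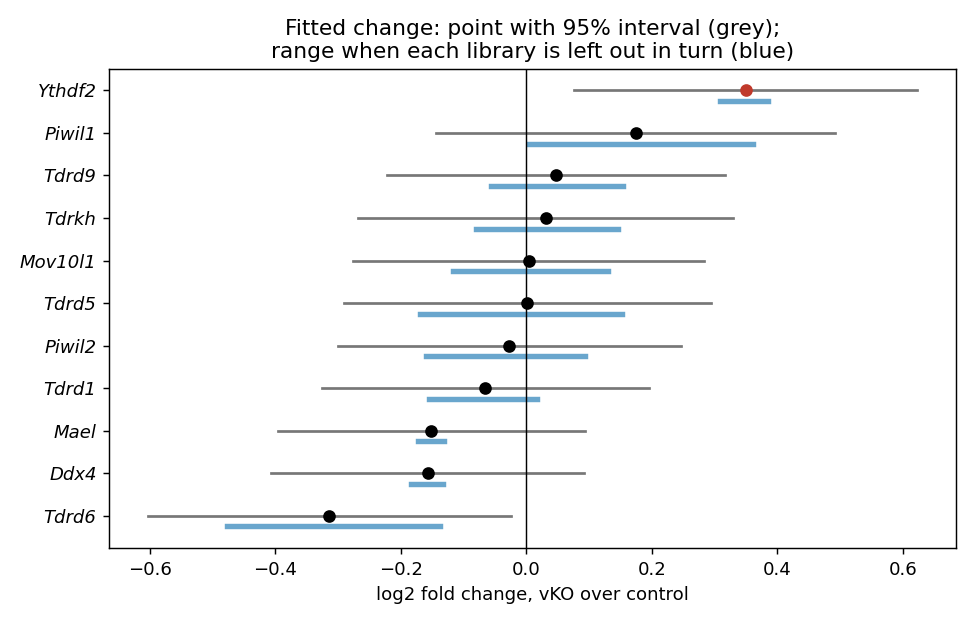
Log2 fold change, vKO over control (x axis), for each gene (black point) and Ythdf2 (red point), with the 95% interval in grey and, in blue, the range of values when each library is left out in turn. The intervals of 9 of the 10 genes hold 0. The blue ranges are narrow for Mael and Ddx4 and wide for Piwil1, Tdrd6 and Tdrd5.

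Mael and Ddx4 were the genes most alike across libraries. Mael (chr1:166201201-166238747) encodes Maelstrom, a granule protein needed for transposon silencing and piRNA production, and Ddx4 (chr13:112598333-112652475) encodes the DEAD-box helicase MVH, the classical marker of germ cells and their granules. Mael read 1004 and 977 CPM in control, against 905 and 878 CPM under the vKO label. Ddx4 read 341 and 334 CPM in control, against 309 and 298 CPM under the vKO label. In both genes the control libraries stood close together above the vKO libraries, which also stood close together. The log2 fold changes were -0.15 for Mael (SE 0.11, 95% interval -0.40 to 0.093) and -0.16 for Ddx4 (SE 0.12, 95% interval -0.41 to 0.093), changes of -9.94% and -10.3%. Neither passed, at adjusted p values of 0.604 and 0.597 in edgeR and unadjusted values of 0.204 and 0.198.

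The ratio of Mael to Ddx4 per kilobase was 5.11 and 5.08 in control, against 5.10 and 5.13 under the vKO label. The SD of its log2 value over the 4 libraries was 0.0066, the smallest of the 45 pairs of members, whose median was 0.159 and whose largest, Tdrd6 with Mov10l1, was 0.314. This pair was singled out after its values were seen. Non-overlap alone says little here: the groups did not overlap in 3 of the 10 genes, all lower in the vKO-labelled libraries, against 22.6% of all genes tested for that direction, 22.7% for the other and 45.3% for either. Leaving out each library in turn kept the change of Mael between -0.17 and -0.13 and that of Ddx4 between -0.18 and -0.13. With library totals alone they were -0.085 and -0.091, where the median of all genes moved to 0.067.

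Values for markers of the cell types of the testis stand here beside those of the 10 genes, and no list was tested as a whole. Of all genes tested 49.7% lay below 0, and edgeR called 0.393%. Of the 4521 genes at least as abundant as the lowest member, 64.9% lay below 0. The 12 Sertoli cell markers all had positive log2 fold changes (median 0.46), with 1 called (Wt1, log2 fold change 0.71, adjusted p 0.0418 in edgeR) and summed levels of 1276 and 1362 CPM in control, against 1887 and 1654 CPM under the vKO label. Spermatogonia markers summed to 119 and 118 CPM against 143 and 129 CPM, with 11 of 12 above 0 and none called. Their median of 0.25 was 0.13 with the GC offset, 0.12 with the GC offset and replicate numbers as a block, and 0.41 without vKO replicate 2. Spermatocyte markers, of the stage at which most of the 10 genes are highly expressed, summed to 5353 and 5077 CPM against 5023 and 4819 CPM, with 14 of 15 below 0 and none called. Their median of -0.19 was -0.29 without control replicate 1, -0.13 without control replicate 2, and -0.12 with the GC offset and that block. Round spermatid markers summed to 1498 and 1522 CPM against 1513 and 1604 CPM, with none called and a median of 0.021 that ran from -0.055 (without control replicate 1) to 0.12 (without vKO replicate 1) and was -0.035 with the GC offset. No gene of the other somatic and blood cell lists was called. The Leydig cell median was 0.36, and 0.27 to 0.43 with 1 library left out. Medians of 0.40 for endothelial cells and 0.76 for erythrocytes were 0.61 and 1.07 without vKO replicate 2, and the latter was 0.41 without vKO replicate 1. Those of peritubular myoid cells (-0.047) and macrophages (0.067) had no stable sign, running from -0.34 and -0.15 without control replicate 1 to 0.48 and 0.73 without control replicate 2. The 10 genes summed to 3620 and 3268 CPM in control, against 3298 and 3050 CPM under the vKO label, and these ranges overlapped. The part of cell composition in these values was not tested.

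**Figure D4:**
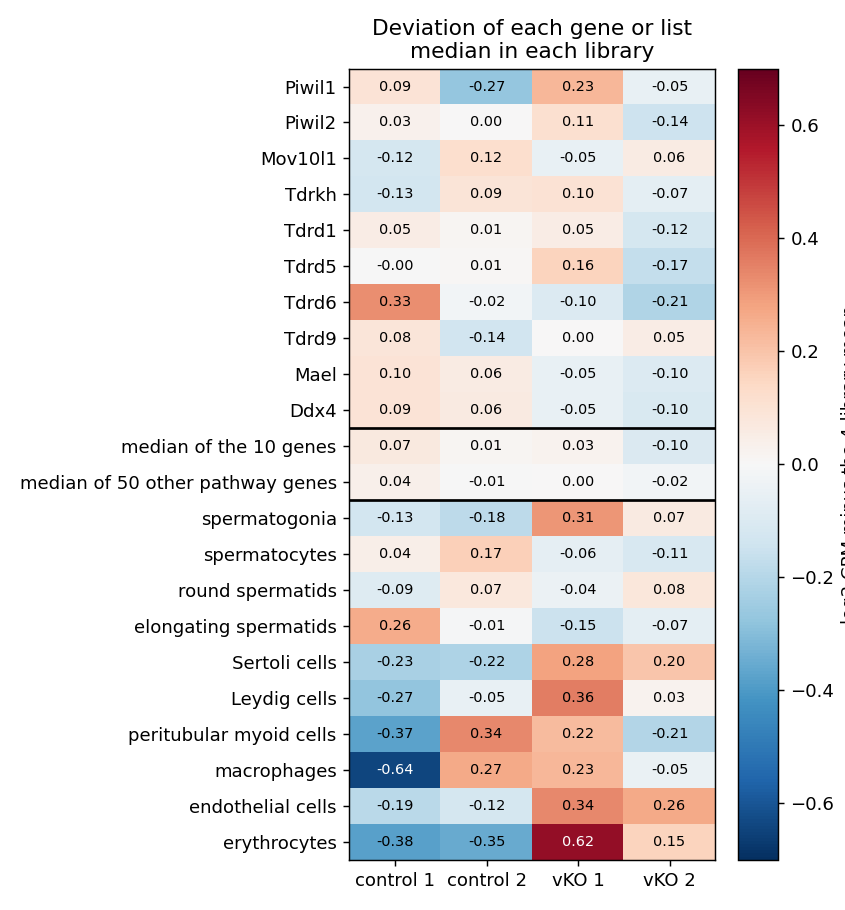
Log2 CPM minus the mean over the 4 libraries (colour and printed value) for each gene, for the medians of the 10 genes and of the other pathway genes, and for the median of each cell type marker list, by library. Tdrd6 and the elongating spermatid list are highest in control replicate 1, at 0.33 and 0.26, and Mael and Ddx4 stand above 0 in both control libraries and below it in both vKO libraries.

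GC content was set beside the changes because the libraries differed in it. Across 17815 genes, which are not independent replicates, a library's deviation from the mean had a Spearman correlation with transcript GC of 0.024 and -0.40 in control, against 0.25 and 0.19 under the vKO label. The 10 genes had a median GC of 49.2%, close to the 48.9% of all genes tested, with Ddx4 lowest at 43.1% and Piwil1 highest at 52.5%. With an offset for GC content the change of Ddx4 was -0.093, that of Mael -0.10 and that of Piwil1 0.11, all smaller, while that of Tdrd6 was -0.35. The offset called 0 of 10 genes, beside 0.672% of all genes. A count of GGACT, a sequence in which m6A is often found, gave 1 in the longest Mael transcript and 12 in that of Tdrd6. Per kilobase, 6 of the 10 genes lay above the median of 1.02 over all genes tested, from 0.351 in Tdrkh to 1.7 in Tdrd6. These are letters in the annotated transcript and no measure of methylation.

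The rest of the pathway was described in the same way. Of 52 other piRNA pathway and germ granule genes, 50 were in the table and all of these were tested, and Tdrd15 and Nanos2 were not matched. None of the 50 was called by edgeR or by DESeq2. Over all genes edgeR called 0.393%, and DESeq2 called 1.32% of those with an adjusted p. At such shares the absence of calls among 50 genes says little. At an unadjusted p under 0.05 there were 7 of 50 by edgeR, 4 higher and 3 lower, beside 14.1% of all genes, and 6 of 50 by DESeq2, beside 8.76% of all genes. Changes were below 0 in 27 and above 0 in 23, with a median of -0.0049. The groups did not overlap in 23 of the 50, 14 lower and 9 higher in the vKO-labelled libraries. Among all genes tested this share was 45.3%, 22.6% lower and 22.7% higher, so non-overlap of a single gene below says little.

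Among the closest partners of the 10 genes, Ddx25, a helicase of the chromatoid body, read 536 and 573 CPM in control against 423 and 462 CPM under the vKO label. Both vKO values lay below both controls, with a log2 fold change of -0.33 (SE 0.12) at an adjusted p of 0.24 in edgeR. Rnf17, a Tudor protein of its own germ cell granule, read 222 and 240 CPM against 191 and 185 CPM, which do not overlap, for a change of -0.30 on the log2 scale (SE 0.12, adjusted p 0.282 in edgeR). In the opposite direction, Henmt1, which methylates the end of the mature piRNA, read 34.9 and 25.4 CPM against 38.4 CPM in each vKO-labelled library, for a change of 0.35 on the log2 scale (SE 0.16, adjusted p 0.345 in edgeR). Without control replicate 1 the log2 fold changes of Ddx25, Rnf17 and Henmt1 were -0.38, -0.36 and 0.59. Without control replicate 2 they were -0.28, -0.24 and 0.14. Over the alternatives with all 4 libraries the adjusted p values of Ddx25, Rnf17 and Henmt1 ran from 0.105 to 0.311, from 0.116 to 0.457 and from 0.107 to 0.466.

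Mybl1, the transcription factor of pachytene piRNA clusters, read 81.5 and 66.9 CPM in control against 65.9 and 56.7 CPM under the vKO label. This gave a log2 fold change of -0.28 (SE 0.14; -0.13 without control replicate 1 and -0.17 without vKO replicate 2), with groups that did not overlap and an adjusted p of 0.418 in edgeR. Tdrd7, a Tudor protein of the chromatoid body, had a log2 fold change of -0.23 (adjusted p 0.409 in edgeR), and Tdrd12, a partner of the PIWI proteins, -0.14 (adjusted p 0.689). Tdrd12 stood at -0.072 without vKO replicate 2, -0.21 without vKO replicate 1, -0.086 with the GC offset and -0.077 with library totals alone. Gtsf1, a cofactor of PIWI slicing, stood at -0.15 (adjusted p 0.621; -0.097 without vKO replicate 1 and -0.088 with library totals alone), and Asz1, a mitochondrial anchor of the granule, at -0.00037 (adjusted p 0.999). Pnldc1, the enzyme that trims piRNA ends, stood at 0.31 (SE 0.20, adjusted p 0.536), moving to 0.083 without control replicate 1, to 0.14 without vKO replicate 2 and to 0.59 without control replicate 2. The nuclear PIWI gene Piwil4, active mainly before birth, held only 15 and 13 counts in control against 9 and 6 under the vKO label, too few to read a difference from. The 4 genes of the list with the smallest unadjusted p were Mov10, Snd1, Ddx25 and Adad2. Mov10, a helicase related to Mov10l1, Snd1, a Tudor nuclease, and Adad2, a double-stranded RNA-binding protein of germ cells, had log2 fold changes of 0.41, 0.43 and 0.33, at adjusted p values of 0.229, 0.230 and 0.282 in edgeR. With the GC offset Mov10 stood at 0.23, Adad2 at 0.080 and Snd1 at 0.44.

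**Figure D5:**
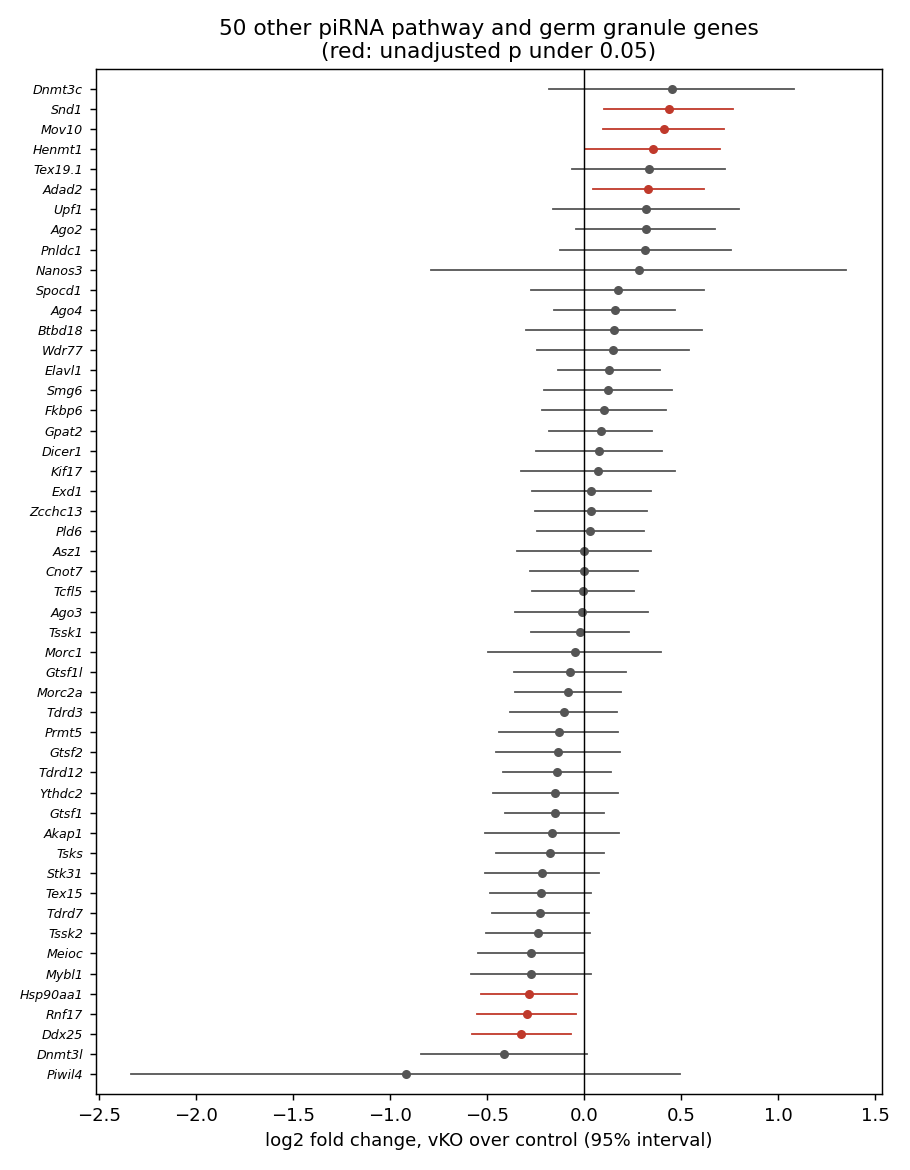
Log2 fold change with 95% interval (x axis, vKO over control) for each of the 50 other pathway genes (y axis, ordered by the change), in red where the unadjusted p is under 0.05. The changes spread to both sides of 0 around a median of -0.0049, and Piwil4 and Nanos3, which have few counts, have the widest intervals.

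By role, the 7 Tudor-domain genes of the list had 6 changes below 0 and 1 above. Of the Tudor-domain genes among the 10 members, Tdrd1 and Tdrd6 lay below 0, and Tdrkh, Tdrd5 and Tdrd9 lay above. Henmt1 and Pnldc1, which act on the ends of piRNAs, lay at 0.35 and 0.31. Exd1, listed with them, lay at 0.036. The 3 genes of the mitochondrial surface, Asz1, Pld6 and Gpat2, lay between -0.00037 and 0.085. Below 0 lay 4 of 5 genes of chaperoning and loading, and 4 of 6 of nuclear silencing. The same held for 2 of 3 genes of piRNA cluster transcription and 10 of the 23 others. None of these genes was called, and the roles were assigned after the values were seen. Among all genes tested 49.7% lay below 0, and 64.9% of the 4521 genes at least as abundant as the lowest member did.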

How the data were processed

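Whole-testis RNA was depleted of ribosomal RNA and made into directional libraries, per the labels' protocols. The authors deposited 1 table of raw read counts per gene and library, with Ensembl identifiers. The submitters' processing notes name HISAT2 2.1.0 and HTSeq 0.6.1p1, with no role; the genome build and the strand setting are not given in the sources used here. The deposited table also gives a mean normalized count (a signal scaled by size factors), a log2 fold change, its standard error, a test score, and a p-value with its adjusted p-value, under DESeq2 column names per the file headers. A DESeq2 1.42.0 Wald test on the deposited counts gave the same 217 calls, with log2 fold changes within 3.7e-08. All genes in the table had at least 10 counts over the 4 libraries.

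The deposited counts were tested with edgeR 4.0.16 (limma 3.58.1, R 4.3.3): counts were scaled by TMM and filtered with filterByExpr, genotype was the only term of a robust quasi-likelihood fit, and two-sided F tests were adjusted by Benjamini-Hochberg over 21132 genes. A gene was called where its adjusted p was below 0.05. Standard errors are the absolute log2 fold change divided by the square root of F, the 95% interval uses the moderated degrees of freedom, and the prior count was 0.125. The test was checked on simulated counts that gave every gene the same variability and held no GC-related differences between libraries. That check cannot show how the test behaves where such differences are present, as they are here. Replicates differed by more than sampling noise (chi-square per degree of freedom 19.4 in control and 7.84 in vKO), so n = 2 libraries per group, and reads carry no molecular identifiers.

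Positions, exon lengths, GC content and GGACT counts come from GENCODE M21 (GRCm38), in which 25241 of the 25265 identifiers were found; similar transcripts were searched with BLAST 2.17.0. Promoter sequences are from RefSeq (GRCm38.p6). The text names the 10 genes, Ythdf2, any called gene of the pathway list, the 4 of that list with the smallest unadjusted p, and 10 close partners; other names were chosen after their values were seen. The members and lists were chosen with earlier results of these data known. Alternatives covered scaling, filters, test, GC offset, replicate block and leaving out each library. Replicate numbers are not said to pair libraries.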

Additional observations from a re-analysis of the deposited data

How the results depend on the processing

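No alternative with all 4 libraries called any of the 10 genes or of the 50 others. At an adjusted p under 0.05 these fits called between 0.308% (no robust estimation) and 4.81% (replicate block) of all genes. Called over all genes were 59 higher and 24 lower, against 181 and 37 with library totals alone, 137 and 80 with the DESeq2 Wald test, and 141 and 76 at an adjusted p under 0.1; 15 were lower without robust estimation and 66 lower with the GC offset. Among the genes called, 71.1% were higher with TMM; scaling by totals made it 83% and the GC offset 53.5%, and library totals alone moved the median of all genes from 0.0027 to 0.067. Same-numbered libraries correlated at 0.0993 across genes in their deviations, over 2 pairs, and the labels state no pairing, so the libraries were treated as unpaired. With the replicate block there were 627 and 390 calls, 4.81% of all genes. Adding the GC offset to that block gave 212 and 225, or 2.07%. Neither fit called any of the 10 genes. The cause was not tested.

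Leaving out 1 library in turn gave 30 (without vKO replicate 1) to 1048 (without control replicate 1) higher calls and 5 (without vKO replicate 1) to 523 (without control replicate 2) lower ones, 0 to 1 of the 10 genes called, 0 to 6 of the 50 others (6 without control replicate 1, 2 without control replicate 2), and medians of the 10 genes from -0.16 (without vKO replicate 1) to 0.019. Of all genes tested, the fit without control replicate 1 called 6.82% and the fit without control replicate 2 called 4.93%. Both fits leave 1 library in a group, so their counts of calls are not read as a result about the pathway. Genes near 0 changed sign. With library totals alone the log2 fold change was 0.039 for Piwil2, 0.0010 for Tdrd1 and 0.058 for Asz1. With the GC offset it was -0.0012 for Mov10l1 and 0.10 for Asz1. Tdrd5 was at -0.0071 with the replicate block and -0.0044 once the GC offset joined the block, where Asz1 was at 0.014 and 0.11. Asz1 was at 0.00047 with no filter and at 0.00077 with at least 10 counts in every library. With 1 library left out, ranges were -0.16 to 0.093 for Piwil2, -0.12 to 0.13 for Mov10l1, -0.080 to 0.15 for Tdrkh, -0.15 to 0.018 for Tdrd1, -0.17 to 0.15 for Tdrd5, -0.057 to 0.15 for Tdrd9 and -0.20 to 0.23 for Asz1. Piwil4 was not tested with at least 10 counts in every library. The 10 genes held at least 1098 counts in every library, and the effect of depth on their errors was not tested.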
